A study of Homo sapiens with 12 samples.

Results

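The genes described here were 8 Kruppel-like factor genes, KLF2, KLF4, KLF5, KLF6, KLF9, KLF10, KLF11 and KLF13, taken by name from the 60612 genes of the deposited gene table. Each name matched 1 row, and all 8 passed the filter on low counts. They were measured in polyadenylated RNA of LX2 cells, wild type in genotype, an established and immortalised line of human hepatic stellate cells, so every library came from the same line. Cells were starved of serum for 16 h beginning 24 h after seeding, in all groups. The control group (4 libraries) was then left untreated and collected at 16 h. The TGFb group (4 libraries) received TGFb at 5 ng/ml for 16 h, and the group called STINGX with TGFb (4 libraries) was first given STINGX, a compound known by that code name, at 10 µM (3 h) and then the same TGFb. No group received STINGX alone, so the compound was compared only in the presence of TGFb. Whether the 4 libraries of a group are separate cultures is not in the labels, and the p-values therefore describe spread between libraries, which may be technical.

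Kruppel-like factors are zinc finger proteins that bind GC-rich and CACCC sequences in promoters, which they share with the related SP proteins. KLF10 was first known as a gene that TGF-beta induces early, and together with KLF9, KLF11 and KLF13 it belongs to the branch of the family that recruits the SIN3A corepressor. KLF2, KLF4, KLF5 and KLF6 act mainly as activators. In liver, KLF2 is best known from sinusoidal endothelium, where shear stress raises it through the kinase ERK5 and MEF2 factors, and KLF6 was identified as a transcript of stellate cells activated by injury.

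Library totals ran from 54035320 to 70787741 estimated counts. The labelled cell type was checked against 15 stellate and mesenchymal markers, of which 13 were tested. DES and LRAT were at 0 in all libraries, and the summed level of the list ran from 6110 to 6253 CPM (counts scaled to a common library total) in control, from 10117 to 10387 CPM with TGFb and from 4878 to 5319 CPM with STINGX and TGFb. COL1A1 (group means of 2307, 6367 and 1644 CPM) and VIM (2951, 2985 and 3006 CPM) carried most of that sum. GFAP, TCF21, HAND2, NGFR and RELN had group means between 0.387 and 6.80 CPM, and LHX2 between 14.4 and 17.4 CPM. Of 8 hepatocyte markers 4 (ALB, APOA2, APOB and TTR) were at 0 in all libraries. KLF6 was far lower in 3 libraries, control replicate 2 and replicates 1 and 4 of STINGX with TGFb, than in the other 9, and KLF6 is given with and without them. The libraries also differed in the share of counts from mitochondrially encoded genes, which ran from 10.02% to 11.3% in control, 8.77% to 9.46% with TGFb and 8.16% to 8.46% with STINGX and TGFb.

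The promoters of 4 members that changed are printed to show how unevenly the family's own binding letters are spread over them. RefSeq (GRCh38.p14) gave 9 promoter windows for 7 of the 8 members, each covering the 250 bases before a start site. The GC box, GGGCGG on either strand, occurred in 42.6% of all 35116 promoter windows of that length, the CACCC box, CACCC on either strand, in 54.7%, and the MEF2 motif in 2.80%. Of the 9 member windows 7 had a GC box. By gene, 6 of the 7 members had a GC box in at least 1 window, and KLF9 had none. A KLF5 window with a GC content of 40.8% had none either. Capitals mark GC boxes, CACCC boxes and the MEF2 motif, and each sequence reads 5′ to 3′ along the strand of its gene. KLF2 is on the plus strand at chr19:16324576-16324816, KLF4 on the minus strand at chr9:107489770-107490019, KLF9 on the minus strand at chr9:70414658-70414907 and KLF13 on the plus strand at chr15:31326585-31326834.
KLF2: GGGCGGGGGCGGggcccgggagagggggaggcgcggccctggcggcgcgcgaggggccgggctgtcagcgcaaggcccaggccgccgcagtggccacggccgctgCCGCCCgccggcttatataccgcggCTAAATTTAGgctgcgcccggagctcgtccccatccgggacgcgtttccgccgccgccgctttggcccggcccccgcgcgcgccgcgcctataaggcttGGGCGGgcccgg
KLF4: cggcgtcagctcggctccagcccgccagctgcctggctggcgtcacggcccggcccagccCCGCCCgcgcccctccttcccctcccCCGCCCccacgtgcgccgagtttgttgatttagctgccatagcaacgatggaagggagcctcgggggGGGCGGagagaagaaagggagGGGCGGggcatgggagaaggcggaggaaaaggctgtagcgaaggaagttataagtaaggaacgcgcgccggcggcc
KLF9: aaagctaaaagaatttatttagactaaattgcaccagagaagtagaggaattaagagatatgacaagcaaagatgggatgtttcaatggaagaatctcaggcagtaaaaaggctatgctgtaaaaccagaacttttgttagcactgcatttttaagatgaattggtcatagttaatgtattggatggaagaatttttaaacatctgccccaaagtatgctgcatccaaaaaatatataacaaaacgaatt
KLF13: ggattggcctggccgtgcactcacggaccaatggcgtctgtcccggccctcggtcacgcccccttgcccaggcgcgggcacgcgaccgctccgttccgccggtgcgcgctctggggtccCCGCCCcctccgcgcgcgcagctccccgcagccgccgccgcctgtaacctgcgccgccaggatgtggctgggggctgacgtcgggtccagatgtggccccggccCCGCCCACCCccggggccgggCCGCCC
The KLF2 window held 4 GC boxes, 2 of them side by side at its far end, and 1 match to the MEF2 motif, CTAAATTTAG, that begins 120 bases before the start. It was the 1 member window of the 9 with a MEF2 match. The KLF4 window, which lies inside the span the files give for that gene, also held 4 GC boxes. KLF13 held 3 GC boxes and 1 CACCC box, and the CACCC box shares a base with a GC box. The KLF9 window had neither box, and its GC content of 32.4% compares with 80% for KLF2, 69.2% for KLF4, 78.8% for KLF13 and a median of 58.0% over all windows. A match describes the letters in this window and says nothing of binding in these cells.

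Compared per length, in FPKM (fragments scaled by transcript length and library total), KLF6, KLF10 and KLF13 had the highest means of the members in every group, and the other 5 lay below. In control, KLF6 was highest at 13.4 ± 5.43 FPKM (mean ± SD, n = 4, as for all means here), followed by KLF10 at 10.7 ± 0.238 and KLF13 at 10.1 ± 0.422 FPKM. KLF6 and KLF10 did not differ beyond their spread, while the KLF10 and KLF13 libraries did not overlap. KLF2, KLF9, KLF4, KLF11 and KLF5 followed, from 6.48 ± 0.626 down to 4.22 ± 0.653 FPKM, and each overlapped its neighbour in that order. With TGFb, KLF10 was highest at 18.4 ± 0.707 FPKM, above every KLF6 library, and KLF6 (15.2 ± 1.46) overlapped KLF13 (13.9 ± 0.412). The 5 lower members then lay between 3.70 and 5.04 FPKM, each overlapping the next. With STINGX and TGFb the lower set came apart. KLF2 stood at 8.64 ± 0.332 and KLF11 at 7.24 ± 0.125 FPKM, without overlap between them or with the genes below. KLF5 (3.53 ± 0.394) and KLF9 (3.50 ± 0.222) overlapped each other, and KLF4 was lowest at 2.32 ± 0.206 FPKM with no library reaching those of KLF9. The 8 members summed to 60.6 ± 6.85 FPKM in control, 68.1 ± 1.61 with TGFb and 65.1 ± 5.25 with STINGX and TGFb. Without the 3 libraries with low KLF6 the sums were 64.0 ± 1.84 FPKM in control (n = 3) and 69.6 ± 0.916 with STINGX and TGFb (n = 2), and KLF6 alone was at 16.0 ± 1.68 and 16.7 ± 0.106 FPKM.

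**Figure D1:**
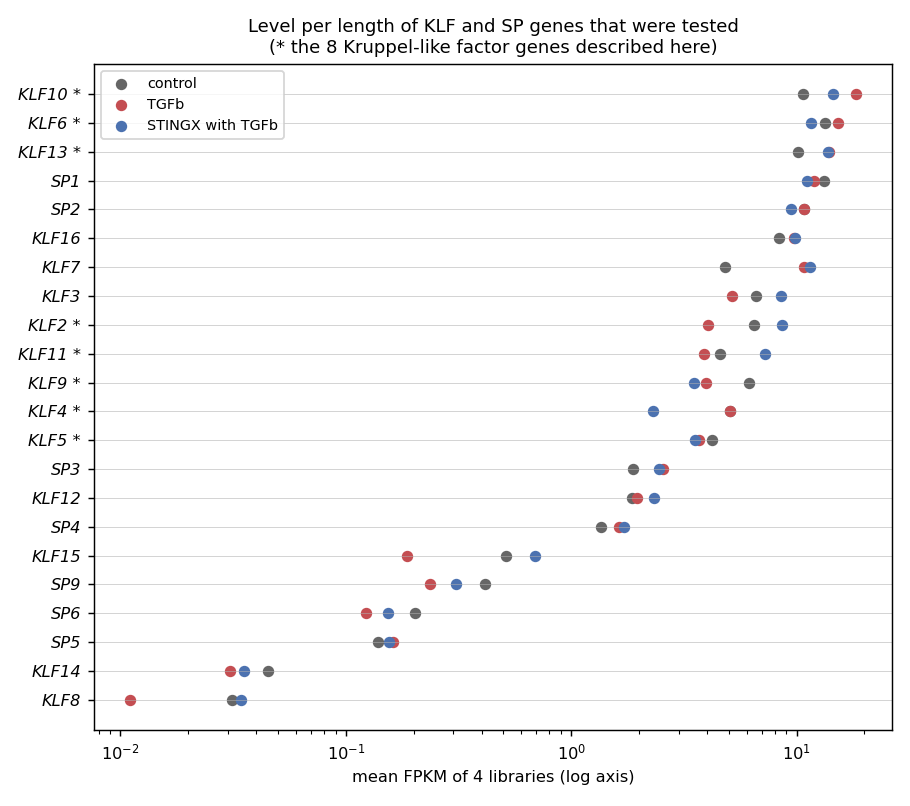
Mean level per length (FPKM, log axis, mean of 4 libraries) of every KLF and SP gene that was tested, 1 row a gene, with a point for each group and an asterisk on the 8 members. KLF10, KLF6 and KLF13 are the top 3 rows, and KLF4 with STINGX and TGFb (2.32 FPKM) is the lowest point of any member.

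The comparison of TGFb with control asked how the cytokine changed these genes. KLF10 and KLF13 rose, KLF2 and KLF9 fell, and KLF4, KLF5, KLF6 and KLF11 did not pass the test (edgeR quasi-likelihood test with Benjamini-Hochberg adjustment over 21328 genes, adjusted p under 0.05). So 4 of 8 members passed, 2 in each direction, where 26.0% of all genes tested passed (13.2% higher and 12.8% lower). Control and TGFb libraries were fully separate for 4 members, against 27.1% of all genes. The median log2 fold change of the members was -0.035, and that of all genes -0.0040. When libraries were scaled by total count alone, 38.7% rather than 50.7% of all calls were higher, and KLF2, KLF9, KLF10 and KLF13 kept their direction and their call.

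Whether STINGX given before TGFb altered the response was asked against TGFb alone. KLF2 and KLF11 rose, KLF4, KLF9, KLF10 and KLF13 fell, and KLF5 and KLF6 did not pass the test. The 6 members that passed, 2 higher and 4 lower, compare with 27.5% of all genes (13.7% higher and 13.8% lower), and the libraries were fully separate for 6 members against 31.6% of genes. The members' median was -0.26 and that of all genes 0.0063. Scaling by total count alone shifted the median gene by 0.15 and made 72.6% rather than 49.98% of calls higher. No called member changed direction under it, but 4 members rather than 6 then passed, since KLF9 and KLF13 were lost. KLF13 lost its call in further settings, given with its values.

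Against control, the group given STINGX and TGFb had higher KLF2, KLF10, KLF11 and KLF13 and lower KLF4, KLF5 and KLF9. These 7 members compare with 34.2% of all genes (17.2% higher and 17.0% lower), and the libraries were fully separate for 6 members against 34.5% of genes. The members' median was 0.027 and that of all genes 0.0042. Total-count scaling made 62.0% rather than 50.3% of calls higher here, and KLF5 was lost. The 3 comparisons share libraries with each other, so their values are given side by side for each gene and are not independent. Because these are bulk RNA, a change in a gene cannot be told apart from a change in the share of cells that express it or in the RNA of each cell.

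**Figure D2:**
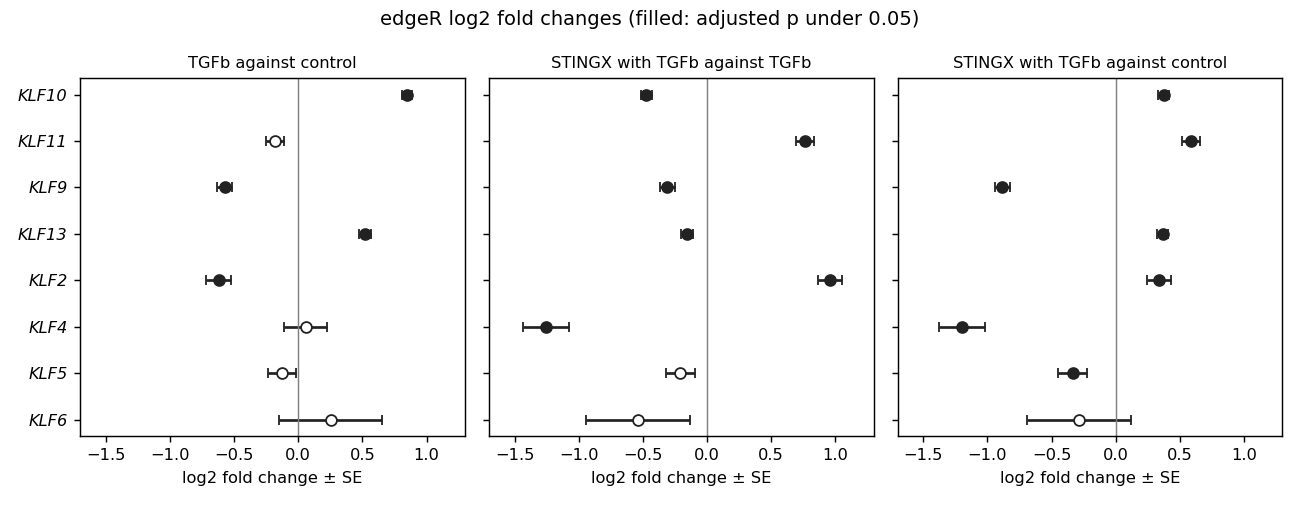
Log2 fold change of the 8 members with its SE in each of the 3 comparisons, from the edgeR fit on 12 libraries, with filled circles for an adjusted p under 0.05. KLF10 and KLF13 lie right of 0 and KLF2 and KLF9 left of it with TGFb, and KLF2 and KLF11 lie right of 0 with STINGX and TGFb against TGFb.

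KLF10 (ENSG00000155090, chromosome 8, 102648784 to 102655725 on GRCh38) encodes TIEG1, a repressor that is a textbook early target of TGF-beta signalling. Its level was 49.1, 49.1, 46.8 and 49.5 CPM in control replicates 1 to 4, 86.6, 84.2, 88.7 and 90.2 CPM with TGFb, and 64.1, 64.0, 60.6 and 63.4 CPM with STINGX and TGFb. All TGFb libraries were the highest, all control libraries the lowest, and the libraries with STINGX lay between them without overlap on either side. KLF10 rose 1.80-fold with TGFb (log2 fold change 0.85 ± 0.042 SE, adjusted p = 1.03e-08). With STINGX and TGFb it was 1.39-fold lower than with TGFb alone (-0.47 ± 0.041, adjusted p = 2.35e-06) and 1.297-fold higher than in control (0.37 ± 0.041, adjusted p = 1.67e-05).

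KLF11 (ENSG00000172059, chromosome 2, 10042849 to 10054836) encodes TIEG2, the closest relative of KLF10, and did not follow it. It stood at 27.2, 26.5, 23.1 and 23.6 CPM in control, 21.0, 20.7, 23.1 and 23.9 CPM with TGFb, and 38.2, 38.6, 36.7 and 37.2 CPM with STINGX and TGFb. Control and TGFb libraries overlapped, and every library with STINGX was above them all. The change with TGFb did not pass the test (-0.18 ± 0.071, adjusted p = 0.0856), although it did under upper quartile scaling (adjusted p = 0.0379), total-count scaling (0.0186), both FPKM scales (0.0194 and 0.0184) and without control replicate 3 (0.0470). With STINGX, KLF11 rose 1.70-fold over TGFb alone (0.77 ± 0.070, adjusted p = 3.84e-06) and 1.50-fold over control (0.59 ± 0.069, adjusted p = 2.95e-05). KLF10 and KLF11 thus passed in opposite directions against TGFb alone and in the same direction against control.

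KLF9 (ENSG00000119138, chromosome 9, 70384597 to 70414624), also called BTEB1, is a gene that glucocorticoids and thyroid hormone induce in many tissues. It was at 37.4, 36.9, 39.7 and 37.7 CPM in control, 24.9, 26.3, 25.1 and 25.7 CPM with TGFb and 21.9, 20.4, 18.7 and 21.1 CPM with STINGX and TGFb. The groups formed 3 separate steps downward, and KLF9 was the 1 member that fell in all 3 comparisons. The mitochondrial share of counts stepped down over the groups in the same order, and its part in the result was not tested. It fell 1.49-fold with TGFb (-0.57 ± 0.058, adjusted p = 9.63e-06), a further 1.24-fold with STINGX (-0.31 ± 0.059, adjusted p = 0.00168), and 1.85-fold between STINGX with TGFb and control (-0.88 ± 0.058, adjusted p = 1.62e-07). The step between TGFb and STINGX with TGFb was -0.17 with an adjusted p of 0.0523 when libraries were scaled by total count alone. Among the hepatocyte markers the summed level moved the same way, from 7.95 to 10.5 CPM in control, 5.05 to 6.39 with TGFb and 3.76 to 3.96 with STINGX and TGFb. SERPINA1 carried nearly all of that sum, ALB and TTR were at 0, and the part of such cells in the result was not tested beyond those zeros.

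KLF13 (ENSG00000169926, chromosome 15, 31326835 to 31435586), also known as BTEB3, is a factor first described at the promoter of the chemokine gene CCL5 in T lymphocytes. Its level was 118, 118, 114 and 105 CPM in control, 165, 160.2, 159.7 and 169 CPM with TGFb, and 152, 150.4, 142 and 142 CPM with STINGX and TGFb. None of the 3 groups overlapped, and the libraries with STINGX lay nearer to TGFb than to control. KLF13 rose 1.43-fold with TGFb (0.52 ± 0.045, adjusted p = 2.36e-06) and stayed 1.29-fold above control with STINGX and TGFb (0.36 ± 0.045, adjusted p = 4.34e-05). The 1.11-fold fall against TGFb alone passed narrowly (-0.16 ± 0.045, adjusted p = 0.0213). It was lost under total-count scaling (-0.015, adjusted p = 0.819), with no filter on low counts (0.0523), on both FPKM scales (0.783 and 0.786), and without TGFb replicate 1 (0.0531), TGFb replicate 4 (0.0646), replicate 3 (0.0657) or 4 (0.0667) of STINGX with TGFb, or the 3 libraries with low KLF6 (0.103).

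KLF2 (ENSG00000127528, chromosome 19, 16324826 to 16328685) is an activator that keeps endothelium quiescent. It was measured at 21.6, 24.7, 22.1 and 19.0 CPM in control, 13.8, 16.7, 12.8 and 13.4 CPM with TGFb and 28.9, 27.3, 27.9 and 26.3 CPM with STINGX and TGFb. The TGFb libraries were the lowest and those with STINGX the highest, with control between them and no overlap. KLF2 fell 1.54-fold with TGFb (-0.62 ± 0.096, adjusted p = 3.75e-04). With STINGX it rose 1.94-fold over TGFb alone (0.96 ± 0.096, adjusted p = 8.09e-06) and 1.26-fold over control (0.34 ± 0.092, adjusted p = 0.0127). All 3 gene calls held in every alternative setting tried and with each library left out, that against control at an adjusted p of up to 0.0415. All 8 endothelial markers were tested, and their summed level ran from 46.1 to 53.1 CPM in control, 40.8 to 43.1 with TGFb and 57.6 to 60.4 with STINGX and TGFb, in the same order as KLF2. TIE1 made up most of that sum (group means of 37.2, 27.8 and 46.6 CPM) and KDR followed the same order (2.08, 1.54 and 2.30 CPM; 0.60 for STINGX with TGFb against TGFb, adjusted p = 0.0322), while CDH5 (1.87, 0.264 and 0.250 CPM) and PECAM1 (1.86, 2.03 and 0.647 CPM) did not. TEK, the next largest part of the sum, did not either (5.35, 9.76 and 8.97 CPM, 0.86 for TGFb against control, adjusted p = 3.39e-04). VWF, CLDN5 and STAB2 had group means of at most 0.394 CPM. The macrophage and leukocyte list moved in the same order (74.1 to 82.5, 31.5 to 37.6 and 76.5 to 91.5 CPM, 5 of 8 tested, CD3E at 0). CD68 carried most of it (59.6, 24.4 and 75.9 CPM), CD14 was at 15.7, 2.42 and 2.30 CPM and CSF1R at 1.24, 6.03 and 3.47 CPM, and PTPRC was at or below a group mean of 0.255 CPM. The part of either list in the KLF2 result was not tested.

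KLF4 (ENSG00000136826, chromosome 9, 107484852 to 107490482) is an activator and repressor best known for holding smooth muscle genes in check and for reprogramming. It was at 24.9, 13.2, 24.9 and 25.3 CPM in control, 22.4, 21.2, 24.9 and 23.6 CPM with TGFb and 9.91, 9.74, 8.37 and 10.4 CPM with STINGX and TGFb. Every library with STINGX was below all others, and control replicate 2 stood apart from its group. TGFb gave no call (0.057 ± 0.17, adjusted p = 0.849), and the sign of that value turned without control replicate 2 (-0.12, adjusted p = 0.328). KLF4 fell 2.39-fold with STINGX against TGFb alone (-1.26 ± 0.18, adjusted p = 1.64e-04) and 2.295-fold against control (-1.20 ± 0.18, adjusted p = 1.84e-04), the largest changes of any member. KLF2 and KLF4, which share regulators in endothelium, therefore passed in opposite directions with STINGX.

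**Figure D3:**
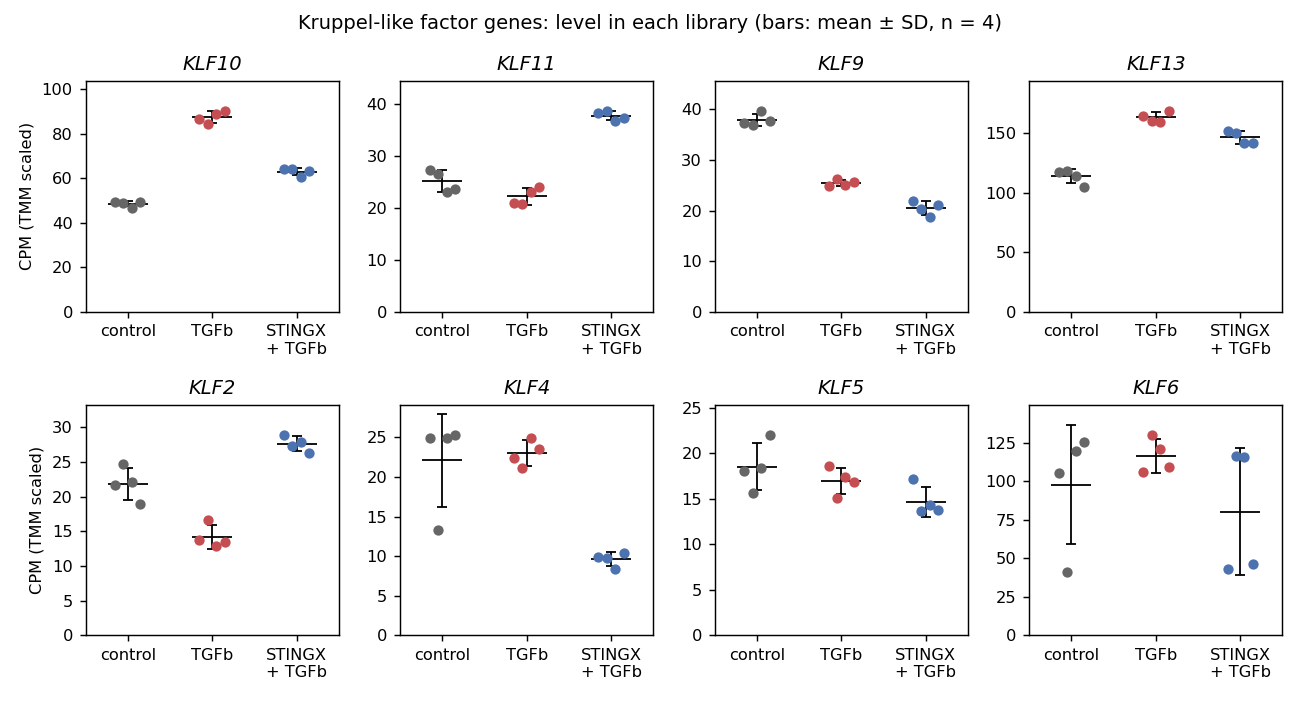
Level of each member in CPM (vertical axes start at 0) in the 12 libraries, grouped as control, TGFb and STINGX with TGFb, with a horizontal bar for the mean and a vertical bar for the SD of 4 libraries. KLF9 steps down over the groups, KLF4 is low in all 4 libraries with STINGX, and KLF6 shows 3 libraries between 41.3 and 46.3 CPM beside 9 between 105 and 130.2 CPM.

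KLF5 (ENSG00000102554, chromosome 13, 73054976 to 73077541), an activator of growth genes in smooth muscle and epithelium, gave 1 narrow call. It was counted at 18.1, 15.7, 18.4 and 22.02 CPM in control, 18.5, 15.1, 17.4 and 16.8 CPM with TGFb and 17.1, 13.6, 14.3 and 13.7 CPM with STINGX and TGFb. All groups overlapped. The test was not passed with TGFb or with STINGX added to it (-0.13 ± 0.11, adjusted p = 0.465 for TGFb against control, and -0.21 ± 0.11, adjusted p = 0.207 for STINGX with TGFb against TGFb). The difference between STINGX with TGFb and control passed narrowly (1.26-fold lower, -0.34 ± 0.11, adjusted p = 0.0353). It was lost in a fit of those groups alone (adjusted p = 0.0577), under total-count scaling (0.108), on both FPKM scales (0.120 each), and without any of control replicates 1, 3 and 4 or replicates 2, 3 and 4 of STINGX with TGFb (0.0558 to 0.104).

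KLF6 (ENSG00000067082, chromosome 10, 3775996 to 3785209), an activator described at collagen and TGF-beta pathway promoters, split the libraries in a way that the groups do not. It was at 105, 41.3, 119 and 125 CPM in control, 106, 130.2, 121 and 109 CPM with TGFb, and 43.1, 116, 116 and 46.3 CPM with STINGX and TGFb. The 3 low libraries lay between 41.3 and 46.3 CPM and the other 9 between 105 and 130.2 CPM. The coefficient of variation of KLF6 was 39.5% in control and 51.3% with STINGX and TGFb, where the median over 10315 genes at a mean of at least 10 CPM was 8.22% and 5.69%. No comparison passed the test (0.25 ± 0.40, adjusted p = 0.711 for TGFb against control, -0.54 ± 0.40, adjusted p = 0.376 for STINGX with TGFb against TGFb, and -0.29 ± 0.40, adjusted p = 0.635 for STINGX with TGFb against control). Without the 3 low libraries the log2 differences were -0.0054, -0.0056 and -0.011, with adjusted p-values of 0.978, 0.980 and 0.958. The gene most like KLF6 over the 12 libraries was RPS26P19, annotated by name as a ribosomal protein pseudogene, at 0.0934, 0.0960 and 0.0875 CPM in the same 3 libraries and from 13.2 to 16.0 CPM in the other 9. Of 13646 tested genes with a symbol and a mean of at least 2 CPM, these 2 were the only ones whose 3 libraries all lay at less than 50% of the lowest of the other 9. Genes without a symbol were not examined.

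Counts per transcript showed which product carried each gene. Of 36 deposited transcripts of the members 18 passed the filter. KLF2 (ENST00000248071), KLF9 (ENST00000377126), KLF5 (ENST00000377687) and KLF13 (ENST00000307145) were each assigned at least 96.2% to the named transcript in every library. Fewer transcripts than genes passed the test, 2.33% of 79677 for TGFb against control, and 3 member transcripts were among them. These were KLF13 ENST00000307145, higher (0.45 ± 0.063, adjusted p = 0.00266), and KLF2 ENST00000248071 (-0.69 ± 0.14, adjusted p = 0.0240) and KLF9 ENST00000377126 (-0.64 ± 0.096, adjusted p = 0.00444), lower. For STINGX with TGFb against TGFb, where 2.40% of transcripts passed, KLF2 ENST00000248071 alone of the members' transcripts did (1.003 ± 0.14, adjusted p = 0.00248). Against control, with 3.45% called, KLF13 ENST00000307145 was higher (0.34 ± 0.063, adjusted p = 0.0129) and KLF9 ENST00000377126 lower (-0.91 ± 0.096, adjusted p = 3.40e-04). KLF2 ENST00000248071, which held all counts of its gene, did not pass there (0.31 ± 0.14, adjusted p = 0.291), although the gene did.

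For KLF4, KLF6 and KLF10 the division between transcripts moved from library to library within a group. For KLF11 it departed mainly in replicate 4 of STINGX with TGFb. KLF10 was assigned between 25.4% and 99.7% to ENST00000285407 and the rest almost wholly to ENST00000395884, with control replicates at 30.1%, 99.5%, 76.0% and 78.2%. Neither KLF10 transcript passed in any comparison, while the gene total had a coefficient of variation of at most 2.96% in each group. KLF4 was assigned between 10.3% and 87.0% to ENST00000374672 and between 5.13% and 75.4% to ENST00000497048, and no KLF4 transcript passed. KLF11 was at least 94.5% ENST00000305883 in 11 libraries and 63.3% in replicate 4 of STINGX with TGFb, and that transcript missed the threshold against TGFb (0.67 ± 0.16, adjusted p = 0.0650). In KLF6 the share of ENST00000497571 was 61.2%, 59.3% and 81.8% in the low libraries and from 81.0% to 93.3% in the other 9. The remaining KLF6 transcripts together held 16.9, 17.9 and 8.57 CPM in the low libraries against 7.95 to 20.8 CPM elsewhere, so most of the missing counts were of ENST00000497571. In replicate 4 of STINGX with TGFb its share lay within the range of the other 9. A loss particular to that transcript is therefore not shown in that library.

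**Figure D4:**
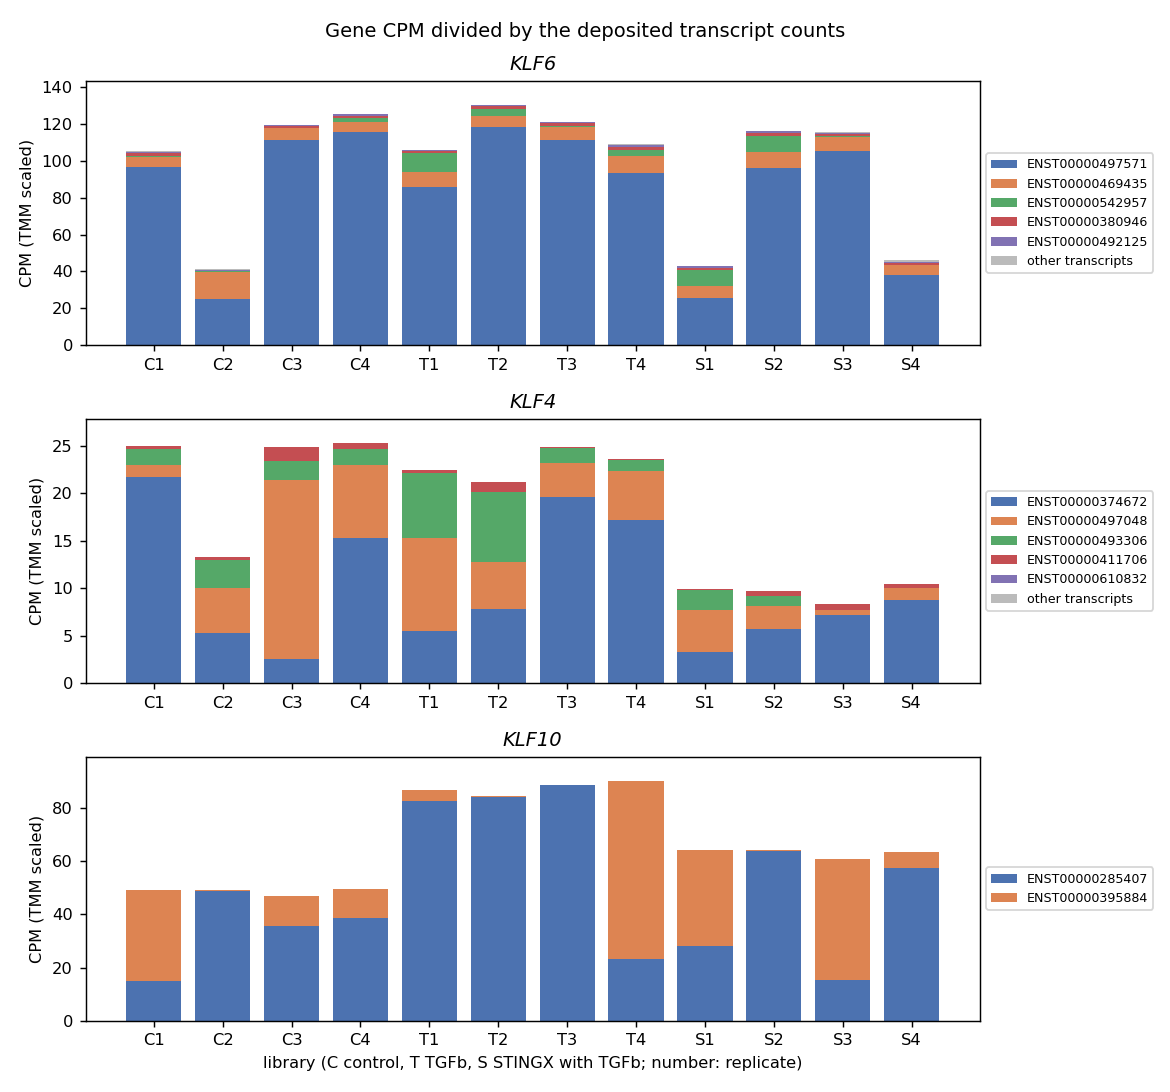
Gene CPM of KLF6, KLF4 and KLF10 in each of the 12 libraries (vertical axes start at 0), divided by the share of the deposited transcript counts, with the 5 most abundant transcripts coloured and the rest grey. The KLF10 totals are even within a group while the split between ENST00000285407 and ENST00000395884 is not, and the low KLF6 libraries lack mainly ENST00000497571.

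Other members of the family and the SP genes, which bind the same letters, were counted in the same fit. Of 10 further KLF genes 7 were tested, and 3 of them passed for TGFb against control (1 higher, 2 lower), 2 for STINGX with TGFb against TGFb (both higher) and 3 against control (all higher), with medians of -0.30, 0.12 and 0.25. That is 42.9%, 28.6% and 42.9% called, where 26.0%, 27.5% and 34.2% of all genes were called and the median of all genes was within 0.0063 of 0 in each comparison. KLF15, a factor of metabolic tissues, was low in level, with means of 1.74 CPM in control, 0.667 with TGFb and 2.20 with STINGX and TGFb. It fell with TGFb (-1.37 ± 0.31, adjusted p = 0.00533) and rose against it with STINGX (1.73 ± 0.29, adjusted p = 7.13e-04). KLF3, a repressor that works with CTBP proteins, moved in the same order as KLF2, from a mean of 53.7 CPM in control to 43.6 with TGFb (-0.30 ± 0.051, adjusted p = 8.56e-04) and 65.4 with STINGX and TGFb (0.58 ± 0.051 against TGFb, adjusted p = 2.55e-06, and 0.29 against control, adjusted p = 8.04e-04). KLF7 was called higher than control with TGFb (1.23 ± 0.39, adjusted p = 0.0421) and with STINGX and TGFb (1.18 ± 0.39, adjusted p = 0.0391). Its control libraries stood at 12.3, 63.1, 69.7 and 67.1 CPM, and its calls were lost in 15 and 14 of 24 alternatives. Without the first of those libraries they held, at 0.90 (adjusted p = 1.20e-06) and 0.86 (adjusted p = 1.66e-06). KLF12 was higher with STINGX and TGFb than in control (0.25, adjusted p = 0.0130), a call that was lost without the 3 libraries with low KLF6 (0.14, adjusted p = 0.288).

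Of 9 SP genes 7 were tested, with 2 higher, 2 lower, and 1 higher and 2 lower in the 3 comparisons in the order above. The shares called, 28.6%, 28.6% and 42.9%, compare with 26.0%, 27.5% and 34.2% of all genes, and the medians were 0.055, -0.19 and -0.27. SP3 (0.51, adjusted p = 0.00668) and SP4 (0.34, adjusted p = 0.0131) rose with TGFb. SP2 (-0.32, adjusted p = 0.00106) and SP1 (-0.23, adjusted p = 0.00484), the general activator of GC-box promoters, fell with STINGX against TGFb. Against control with STINGX and TGFb, SP1 (-0.33, adjusted p = 3.72e-04) and SP2 (-0.27, adjusted p = 0.00309) were lower and SP4 was higher (0.27, adjusted p = 0.0317). That SP4 call was lost in 8 of 24 alternatives, and the SP1 call against TGFb in 3.

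Genes that act on KLF2 and KLF4 were followed through 12 genes of the ERK5-MEF2 pathway and the cerebral cavernous malformation (CCM) complex, all tested. With TGFb 1 rose and 2 fell, 3 of 12, against 26.0% of all genes. MAP3K2, a kinase above ERK5, rose from 68.0 to 100.4 CPM (0.56 ± 0.039, adjusted p = 3.03e-07), HEG1, the receptor that anchors the CCM complex, fell from 567 to 332 CPM (-0.77 ± 0.11, adjusted p = 1.78e-04), and MAP3K3 fell slightly (-0.18, adjusted p = 0.00452). With STINGX against TGFb only MAP3K3 (0.18, adjusted p = 0.00448) and CCM2 (-0.17, adjusted p = 0.0373) passed, and CCM2 was lost in 13 of 24 alternatives, among them total-count scaling (-0.026, adjusted p = 0.738). MAPK7, which encodes ERK5, and the 4 MEF2 genes passed in none of the 3 comparisons. HEG1 (-0.74, adjusted p = 1.90e-04) and CCM2 (-0.16, adjusted p = 0.0369) were lower and MAP3K2 (0.53, adjusted p = 4.68e-07) higher in STINGX with TGFb than in control. The CCM2 call there was also lost in 13 of 24 alternatives, with -0.081 under total-count scaling (adjusted p = 0.227). The 2 of 12 called against TGFb and 3 of 12 against control compare with 27.5% and 34.2% of all genes.

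Of 5 ubiquitin ligases that act on KLF proteins, 1, 1 and 2 were higher in the 3 comparisons and none was lower, beside 26.0%, 27.5% and 34.2% of all genes called in either direction. SMURF1, a ligase known for the turnover of SMAD proteins and KLF2, rose from a mean of 79.5 to 124 CPM with TGFb (0.64 ± 0.040, adjusted p = 1.07e-07) and remained at 118 CPM with STINGX (0.56 against control, adjusted p = 3.03e-07). WWP1, which marks KLF2 and KLF5 for degradation, was higher with STINGX than with TGFb alone (0.32, adjusted p = 0.0238) and than in control (0.34, adjusted p = 0.0126), and the first of these calls was lost in 4 of 24 alternatives. The 12 corepressors and coactivators counted 2 higher and 3 lower with TGFb, 2 lower with STINGX against TGFb, and 3 higher and 5 lower against control. That is 41.7%, 16.7% and 66.7% called, beside 26.0%, 27.5% and 34.2% of all genes, and the CREBBP call among those higher than control was lost in 8 of 24 alternatives. The acetyltransferase gene KAT2B fell from 20.5 to 11.7 CPM with TGFb (-0.81 ± 0.10, adjusted p = 7.00e-05), SAP30, a subunit of the SIN3 complex that KLF9, KLF10, KLF11 and KLF13 recruit, fell from 10.6 to 6.90 CPM (-0.62, adjusted p = 3.03e-04), RBBP7 fell (-0.38, adjusted p = 0.0221) and the coactivator EP300 rose (0.28, adjusted p = 0.00407). The RBBP7 call was lost in 5 of 24 alternatives. The deacetylase genes HDAC1 (-0.42, adjusted p = 2.41e-04) and HDAC2 (-0.39, adjusted p = 3.17e-05) fell with STINGX against TGFb.

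Genes described in other systems as targets of KLF proteins numbered 28, of which 27 were tested. Many of them are also matrix, contractile or TGF-beta response genes. With TGFb 10 rose and 8 fell (66.7% called, median 0.35), with STINGX against TGFb 1 rose and 13 fell (51.9% called, median -0.26), and against control 7 were higher and 10 lower (63.0% called, median -0.33). Over all genes tested 26.0%, 27.5% and 34.2% were called, with medians of -0.0040, 0.0063 and 0.0042. SMAD7, an inhibitor of TGF-beta signalling that KLF10 and KLF11 are described to repress, rose from 17.3 to 108 CPM with TGFb (2.65 ± 0.11, adjusted p = 1.70e-09) and stood at 59.3 CPM with STINGX. CCL5, the chemokine gene tied to KLF13, was at 106, 107, 54.6 and 96.3 CPM in control, 180.5, 189, 173 and 166 CPM with TGFb and 13.8, 8.68, 14.9 and 13.6 CPM with STINGX and TGFb. It fell 13.9-fold with STINGX against TGFb (-3.80 ± 0.23, adjusted p = 3.38e-07), where KLF13 fell 1.11-fold. VCAM1, an adhesion gene that KLF2 and KLF4 are described to restrain, fell from 30.4 to 3.76 CPM with TGFb (-3.01 ± 0.13, adjusted p = 2.64e-09) while KLF2 also fell. With STINGX, VCAM1 fell further to 1.39 CPM (-1.45 ± 0.17 against TGFb, adjusted p = 4.03e-05), while KLF2 rose and KLF4 fell. TAGLN, a smooth muscle gene that KLF4 is described to repress, rose with TGFb (2.41 ± 0.091, adjusted p = 9.30e-10), when KLF4 gave no call. With STINGX against TGFb, TAGLN fell (-1.12 ± 0.087, adjusted p = 8.33e-07), and KLF4 fell too. ACTA2, the smooth muscle actin gene of activated stellate cells, fell from 45.0 to 15.7 CPM with STINGX (-1.52 ± 0.073, adjusted p = 9.34e-09), as did COL1A1 (-1.95 ± 0.024, adjusted p = 4.03e-14), TNFRSF11B (-1.46 ± 0.060, adjusted p = 2.01e-09) and KLF4 itself. NOS3, an endothelial gene that KLF2 activates, was the 1 listed target called higher with STINGX than with TGFb alone. It was low in level, at 1.92 CPM with TGFb and 3.64 CPM with STINGX (0.92 ± 0.14, adjusted p = 3.22e-04). THBD (0.43, adjusted p = 0.324) and S1PR1 (0.69, adjusted p = 0.281), also listed, did not pass there.

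KLF9 is described as a gene that glucocorticoids, thyroid hormone and the oxidative stress factor NRF2 induce, and those lists were set beside it. Of 10 glucocorticoid and thyroid genes 9 were tested, with 1 higher and 2 lower for TGFb against control, 4 higher for STINGX with TGFb against TGFb, and 2 higher and 1 lower against control. The shares called were 33.3%, 44.4% and 33.3%, beside 26.0%, 27.5% and 34.2% of all genes. THRB, a thyroid hormone receptor gene, fell with TGFb from 6.88 to 1.79 CPM (-1.95 ± 0.28, adjusted p = 2.14e-04) and rose against TGFb with STINGX to 4.59 CPM (1.36 ± 0.30, adjusted p = 0.00399). THRA was lower with TGFb (-0.26, adjusted p = 8.69e-04). DUSP1 rose with TGFb from 29.3 to 52.6 CPM (0.85 ± 0.053, adjusted p = 1.04e-07) and stood at 66.7 CPM with STINGX and TGFb. The glucocorticoid-induced genes DUSP1 (0.34, adjusted p = 2.94e-04), SGK1 (0.50, adjusted p = 0.00169) and ERRFI1 (0.25, adjusted p = 0.0466) were higher with STINGX than with TGFb alone, where KLF9 fell. TSC22D3 (from 30.3 to 21.5 CPM, -0.50, adjusted p = 0.109) and the receptor gene NR3C1 (from 183 to 117 CPM, -0.65, adjusted p = 0.0647) were lower in that comparison without passing. FKBP5 (-0.082, adjusted p = 0.808) and PER1 (0.064, adjusted p = 0.734) did not pass either. ERRFI1 lost its call in 14 of 24 alternatives.

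All 7 genes of the NRF2 list were tested. The counts were 2 higher and 3 lower with TGFb (median -0.13), and 5 higher and none lower with STINGX both against TGFb (median 0.62) and against control (median 0.79). With TGFb, GCLM rose from 27.9 to 59.3 CPM (1.09, adjusted p = 9.03e-08) and SRXN1 rose (0.17, adjusted p = 0.0115). TXNRD1 (-0.71, adjusted p = 1.92e-08), NQO1 (-0.68, adjusted p = 3.87e-04) and HMOX1 (-0.28, adjusted p = 0.0285) fell with TGFb. In each comparison 71.4% of the list was called, beside 26.0%, 27.5% and 34.2% of all genes, and the HMOX1 call with TGFb was lost in 7 of 24 alternatives. HMOX1, which encodes heme oxygenase, went from a mean of 27.5 CPM in control and 22.7 with TGFb to 123 CPM with STINGX and TGFb (2.45 ± 0.086 against TGFb, adjusted p = 5.01e-10). NQO1 (1.60 ± 0.11, adjusted p = 1.81e-07), TXNRD1 (0.91, adjusted p = 1.95e-09) and SRXN1 (0.62, adjusted p = 3.32e-07) rose with it. KLF9 fell in the same libraries, and NFE2L2, which encodes NRF2, did not pass in any comparison. Replicate 4 of STINGX with TGFb held NFE2L2 at 28.9 CPM and the other 11 libraries at 73.7 to 90.7 CPM. Without it NFE2L2 gave 0.089 against TGFb (adjusted p = 0.354) in place of -0.17 (0.699), and -0.021 against control (adjusted p = 0.838) in place of -0.28 (0.468). Beside KLF12, list genes named here that lost a call without the 3 libraries with low KLF6 were KLF7 (adjusted p = 0.132 with TGFb and 0.203 with STINGX and TGFb, both against control), SP4 against control with STINGX and TGFb (0.0504), CCM2 (0.0767 against TGFb and 0.118 against control), RBBP7 (0.0608) and HMOX1 (0.109) with TGFb, and ERRFI1 with STINGX against TGFb (0.0907).

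**Figure D5:**
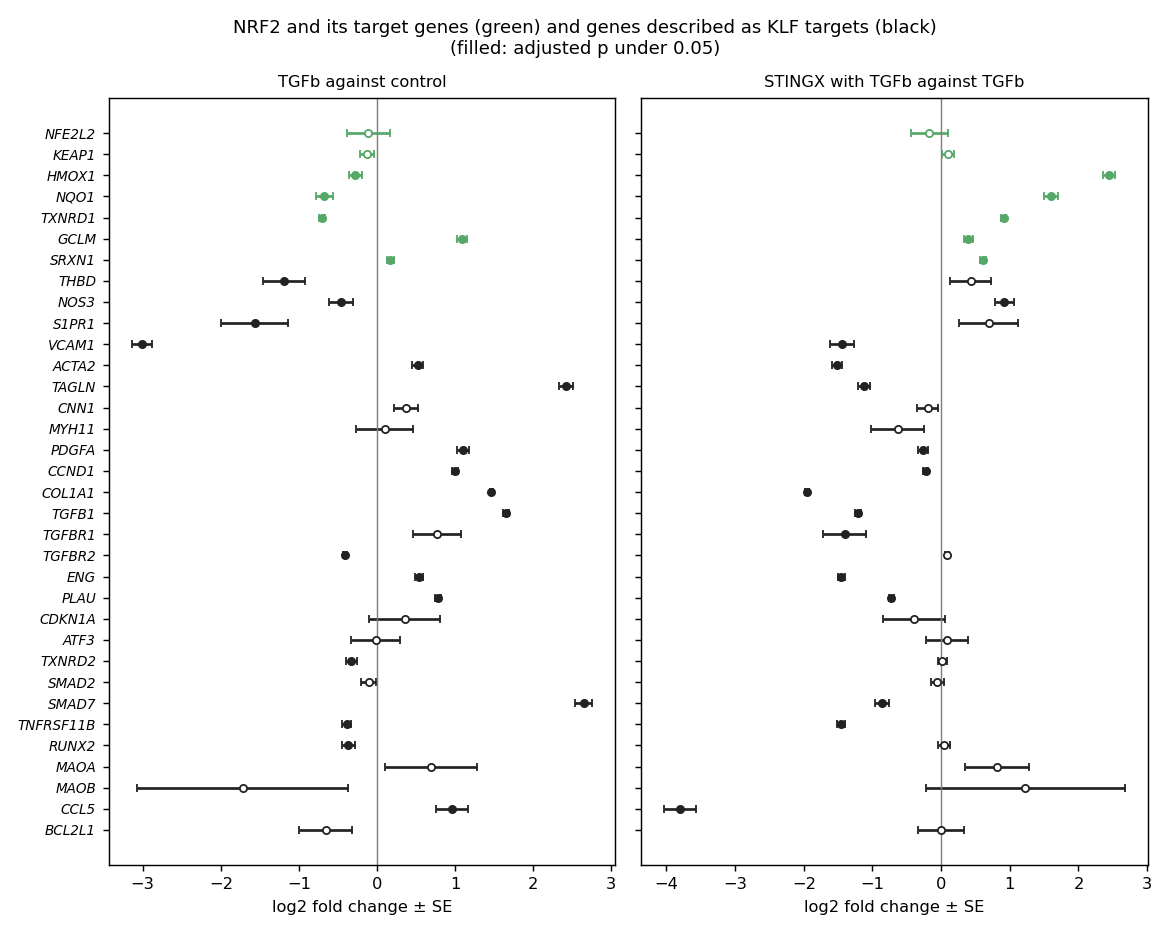
Log2 fold change with its SE for NRF2 and its target genes (green) and for genes described as KLF targets (black), for TGFb against control and for STINGX with TGFb against TGFb, with filled circles for an adjusted p under 0.05. HMOX1 (2.45) and NQO1 (1.60) lie far right and CCL5 (-3.80) far left with STINGX.

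The search for genes most alike covered 13645 other tested genes with a symbol and a mean of at least 2 CPM. For each member, the 3 genes with the highest Pearson's r of log2 CPM over the 12 libraries are given. These values describe a ranking across libraries that share 3 group means, so any gene with a like order of groups scores high. KLF10 was most like PODXL (0.996), CDH2 (0.995) and BHLHE40 (0.995), genes of a surface sialomucin, N-cadherin and a transcriptional repressor, with group means for PODXL of 331, 2079 and 759 CPM. KLF9 ranked with C4A (0.992), CLCA2 (0.990) and IKBKE (0.988), and C4A, a complement gene with a near-identical copy, had means of 20.2, 8.16 and 4.52 CPM. KLF13 stood beside FBXO32 (0.990), SMAD7 (0.990) and SPHK1 (0.984), 3 genes highest with TGFb. KLF2 was closest to LAYN (0.988), SH3PXD2B (0.983) and CABLES2 (0.983), each lowest with TGFb and highest with STINGX. KLF11 was closest to MCOLN1 (0.987), MORN4 (0.980) and STEAP3 (0.979), and MCOLN1 encodes a lysosomal channel. KLF4 had SLC25A37 (0.959), MVK (0.955) and SVIL (0.954), and MVK, an enzyme of cholesterol synthesis, had means of 48.5, 49.5 and 22.7 CPM. KLF5 reached 0.922 with AC025774, 0.912 with AC105020 and 0.893 with SUPT16H. After RPS26P19 (0.987), KLF6 was most like EIF2S3B (0.907) and RTL10 (0.878).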

How the data were processed

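Polyadenylated RNA was measured in 12 libraries of LX2 cells in 3 groups of 4. The authors deposited estimated counts per gene and per transcript, all whole numbers, and FPKM values per gene, in which a count of 0 is listed at 0.0001. The submitters' processing notes name cutadapt, HISAT2, StringTie and edgeR and the build GRCh38, while versions, roles and strand use were not given in the sources used here. No column was without a sample (0).

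The deposited gene counts went through edgeR (4.0.16, under R 4.3.3; filterByExpr with a minimum count of 10 and total of 15, TMM scaling, quasi-likelihood F test over all 12 libraries with 9 residual degrees of freedom, Benjamini-Hochberg over 21328 genes, threshold 0.05), and 79677 transcripts likewise. CPM are TMM scaled. FPKM served to compare genes and as an alternative on log2(FPKM + 1) and log2(FPKM + 0.1). A fold change carries an SE derived from the F statistic. Replicate pairs differed by 38.4 to 80.8 in chi-square per degree of freedom, so each library counted once. Counting intervals would cover counting error only, since fragments carried no molecular identifiers.

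Members and lists were chosen with earlier results of these data known. Named were all members, some of their filtered transcripts, and the 3 genes most like each member (log2 CPM, prior count 2). List genes were drawn from the up to 4 of each list and comparison with the largest change among those passing. Not all of those genes, nor all their comparisons, are given. NOS3, NFE2L2, MAPK7, the marker genes and other genes beyond that rule were chosen after their values were seen. The 5 pseudogenes of members held at most 12 counts, and KLF11 overlaps AC104794 on the opposite strand (13 counts in all). Alternatives were other scalings, filters, DESeq2 1.42.0, limma 3.58.1, the replicate block, each library left out, and, chosen after seeing the data, the 3 libraries with low KLF6 left out together. Promoters came from RefSeq. Motif counts and GC content used the whole 250 bases, and only the printed sequences were trimmed where GENCODE places an exon.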

Additional observations from a re-analysis of the deposited data

Results flagged for a closer look

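Among 24 sets of 4 libraries (8 members in 3 groups), 2 held a library far from the others, where chance gives about 1 in 20. KLF4 in control replicate 2 was at 13.2 CPM, and the other control libraries were at 24.9, 24.9 and 25.3 CPM, so its gap took up 0.967 of the group's range. Control replicate 2 is also 1 of the 3 libraries with low KLF6. KLF10 in control replicate 3 was at 46.8 CPM beside 49.1, 49.1 and 49.5 CPM (0.836 of the range), a small gap in a gene whose control values had a coefficient of variation of 2.59%. Low KLF6 with STINGX and TGFb was not singled out this way, because 2 of the 4 libraries were low together.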

How the results depend on the processing

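The members called numbered 4, 6 and 7 in the 3 comparisons and stayed from 4 to 5, from 4 to 6 and from 6 to 7 over all alternatives (4 to 5, 5 to 6 and 6 to 7 with each library left out). The values that changed sign had no call to begin with. KLF4 for TGFb against control was -0.0077 under total-count scaling, -0.13 without the 3 libraries with low KLF6 and from -0.12 (without control replicate 2) to 0.13 with each library left out. KLF6 was -0.0054 without those 3 and from -0.0019 (without control replicate 2) to 0.39 with each library left out. Calls lost or gained among members (KLF13 and KLF9 against TGFb, KLF5 against control, KLF11 with TGFb) stand beside their values. Member transcripts called for STINGX with TGFb against TGFb were 1, and became 2 under total-count scaling, 3 by DESeq2, from 1 to 2 with each library left out, and 0 without the 3 libraries with low KLF6; against control they went from 2 to 1 without those 3. Fewer libraries were tested there; the cause of the other changes was not tested. Of 1704 results of list genes under another setting 1599 kept direction and call and 105 lost the call, KLF7 and CCM2 among them.

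Replicate numbers gave no clear pairing of the libraries. Same-number correlations of deviations ran from -0.038 to 0.045 and those of different numbers from -0.041 to 0.042. Of 12 libraries 5 correlated best with their own number. With the replicate block 4, 6 and 7 members and 2, 1 and 2 transcripts were called, and KLF7 lost its calls (adjusted p = 0.0747 and 0.0675). The counts derive from coverage, so shares between transcripts, and gene totals where 1 library drops, are less certain than depth alone implies.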
